A study of Ovis aries and Bos taurus with 10 samples.

Results

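Oocytes and granulosa cells (GC) of sheep secondary follicles were compared on 2 arrays, SECO for the oocytes and SECG for the GC. The comparison asked which transcripts distinguish the egg from the somatic cells that surround it once a follicle has left the resting pool. A probe set was called bright when it was among the brightest 35% on SECO or on SECG, and 9930 of the 24016 probe sets that are not controls were bright. Of these, 6880 were bright on both arrays, 1525 on SECO only and 1525 on SECG only, the last 2 numbers being equal by construction. The bright probe sets with 1 gene symbol stood for 5652 of the 9155 genes that the array names. The dimmest bright probe set had a signal of 59.7 on SECO and 50.6 on SECG, and the next probe sets outside these limits had 59.64 and 50.58.

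All cells came from new-born lambs of less than 1 day, with no treatment or genotype recorded, and were cut from ovary sections by laser capture microdissection (LCM). SECO and SECG each held RNA pooled from 2 animals, amplified through a double round of T7 transcription, labelled with the Arcturus turbo kit and hybridized to the Affymetrix Bovine array. Of the 10 arrays of the series, 6 held LCM samples, and PDO and PDG (primordial follicles, RNA of 2 animals) and PMO and PMG (primary follicles, RNA of 4 animals) are used here only as context. There was 1 array a side, so no difference has a replicate error and none was tested. Every difference below is log2(signal + 20) on SECO minus that on SECG, so 1 is a 2-fold and 2 a 4-fold difference on that scale, and folds of dim genes are understated.

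In a secondary follicle the oocyte has started to grow and is enclosed by more than a single layer of cuboidal GC, and follicles with 2 layers were captured here. The oocyte keeps germ line programmes such as meiotic cohesin and the defence against transposons, builds its zona pellucida and secretes GDF9 and BMP15, which act on GC. GC divide, are joined to each other and to the oocyte by gap junctions, sit on a basal lamina and begin to make inhibin, follistatin and steroid-converting enzymes. Folds of pooled tissue RNA do not tell fewer cells of a type from less RNA per cell.

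The 2 arrays separated by a small part of the bright probe sets. The median difference was 0.05 with an SD of 0.83 across the 9930 probe sets, and 1110 probe sets (11.2%) lay at least 2-fold higher on SECO and 913 (9.19%) at least 2-fold higher on SECG. At 4-fold the numbers were 124 (1.25%) and 111 (1.12%). After quantile normalization of the 2 arrays the same 4-fold threshold gave 84 and 125, so that the side with more probe sets depended on the scaling. The 2 sides differed in brightness. The 124 probe sets higher on SECO had a median signal of 116 there and 6.66 on SECG, and for 110 of them the SECG signal was under its limit. The 111 higher on SECG had a median of 299 there and 33.7 on SECO, and 66 had a SECO signal under the limit. Only 14 and 45 of them were bright on both arrays.

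**Figure D1:**
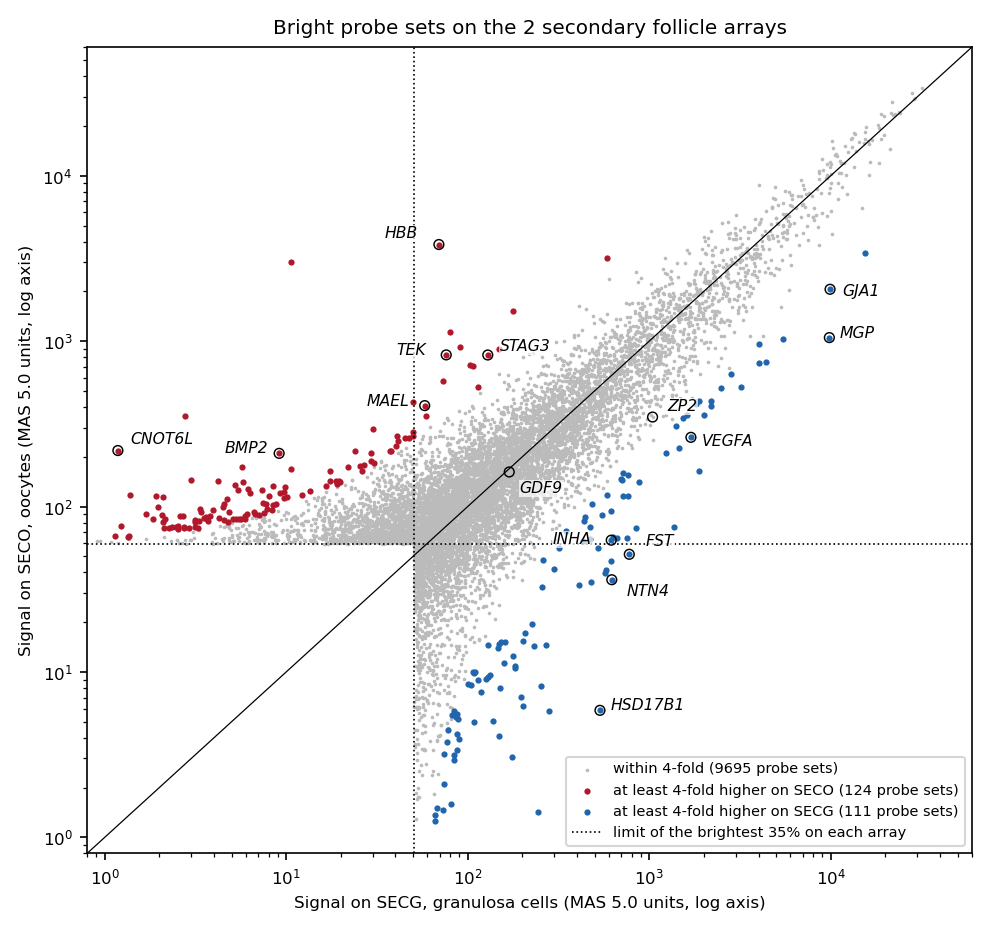
Signal on SECO (vertical, log axis, MAS 5.0 units) against signal on SECG (horizontal, log axis) for the 9930 bright probe sets. Red points are the 124 probe sets at least 4-fold higher on SECO, blue points the 111 at least 4-fold higher on SECG, dotted lines the limits of 59.7 and 50.6, and circles mark named genes. Most red points lie left of the SECG limit, while many blue points lie above the SECO limit.

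Of 4 genes taken as markers, STAG3 and MAEL were brighter on SECO and INHA and HSD17B1 on SECG. These 4 had been picked with the values of both arrays known, so their side is a description and no check of the labels. STAG3, a cohesin subunit of meiotic chromosomes, had a signal of 824 on SECO and 129 on SECG, a difference of 2.50. All 3 of its bright probe sets were higher on SECO, the other pair by 0.81 and 2.10. MAEL, a protein of the germ cell nuage that takes part in silencing transposons, had 407 on SECO and 57.9 on SECG, a difference of 2.46, and its other bright probe sets differed by 1.98 and 2.01. INHA, the alpha subunit of inhibin, had 62.6 on SECO and 617 on SECG, a difference of -2.95. HSD17B1, which converts estrone to estradiol, had 5.86 on SECO and 535 on SECG, the largest difference on the GC side at -4.42. Since the SECO signal of HSD17B1 was under the limit, the gene was at least 8.97-fold higher on SECG when that limit takes the place of the dim signal.

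The same genes differed less at the earlier stages, where the arrays were not used to choose them. MAEL had 411 on PMO and 323 on PMG, and 290.1 on PDO and 218 on PDG. STAG3 had 297 on PMO and 193 on PMG, and 430.1 on PDO and 197 on PDG. Its oocyte signal was highest on SECO and its GC signal lowest on SECG. INHA was brighter on the GC array at each stage, with 105 and 200.3 on PMO and PMG and 27.4 and 36.7 on PDO and PDG, and its signal on SECG was the highest of the 6. HSD17B1 had 37.3 on PMO and 102 on PMG, but 37.8 on PDO and 6.89 on PDG, so the order of the compartments was turned at the primordial stage.

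The wider oocyte markers did not follow the label. Of 13 oocyte marker genes on the array 12 were bright, with a median difference of 0.04 against 0.03 for all bright genes, and only STAG3 and MAEL were at least 2-fold higher on SECO. ZP2, a protein of the zona pellucida, was lower on SECO with 348 against 1043 on SECG, a difference of -1.53. MOS, a kinase of meiotic arrest, had 80.4 and 221 (-1.27), and KPNA7, an importin of eggs and early embryos, had 374 and 802 (-1.06). All 3 lay the other way at the primordial stage, where ZP2 had 1418 on PDO and 598 on PDG. GDF9, an oocyte factor that drives GC growth, had 162 on SECO and 169 on SECG, and NLRP5, needed by the early embryo, had 297 and 254. ZP3 and ZP4 are named after their values were seen: ZP3, also of the zona, had 751 and 683, and ZP4 had 493 and 987. BMP15, the other oocyte growth factor, was not bright, with 40.6 on SECO and 12.5 on SECG. The 13 oocyte marker genes summed to 4504 on SECO, 4889 on SECG, 10596 on PMO and 10563 on PDO, and on SECG 11 of the 13 passed the limit. SECO thus had less oocyte marker signal than either other oocyte array, and no more of it than SECG.

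Most of the bright GC markers went with the label. Of 21 on the array 12 were bright, with a median difference of -1.21. Of the 12, 7 (58.3%, against 8.44% of all bright genes) were at least 2-fold higher on SECG and 1 (8.33%, against 9.57%) at least 2-fold higher on SECO. The 7 include INHA and HSD17B1, picked with the values of both arrays known, so this share is no check of the labels. FST, follistatin, which binds activin, had 51.4 on SECO and 776 on SECG (-3.48). GJA1, a gap junction protein, had 2058 and 9910.2 (-2.26), and CDH2, N-cadherin of cell junctions, had 49.3 and 163 (-1.40). The transcription factors GATA6 and NR5A1, which regulate steroid-producing cells, had 406 and 995 (-1.25) and 181 and 434 (-1.18), and 1 of the 3 bright probe sets of NR5A1 was higher on SECO. The 1 on the other side was KRT18, a keratin, with 77.4 on SECO and 5.80 on SECG (1.92). INHBA and KRT19, named after their values were seen, were also higher on SECO but within 2-fold, at 0.38 and 0.22. GATA4 had 229 and 263. AMH and KITLG, hormone and growth factor of GC, were not bright, at 2.42 and 16.6 for AMH and 2.37 and 43.7 for KITLG on SECO and SECG. Others that were not bright lay both ways and are named after their values were seen. FOXL2 had 29.3 on SECO and 3.65 on SECG, CYP19A1 had 44.6 and 15.1, and IHH had 4.88 and 46.8. Without the brightness filter the median difference of the GC markers was -0.71. The 21 genes summed to 15079 on SECG and 4302 on SECO, and to 7525 on PMG and 5683 on PDG. GJA1 alone gave 9910.2 of the sum on SECG and 2058 of that on SECO.

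**Figure D2:**
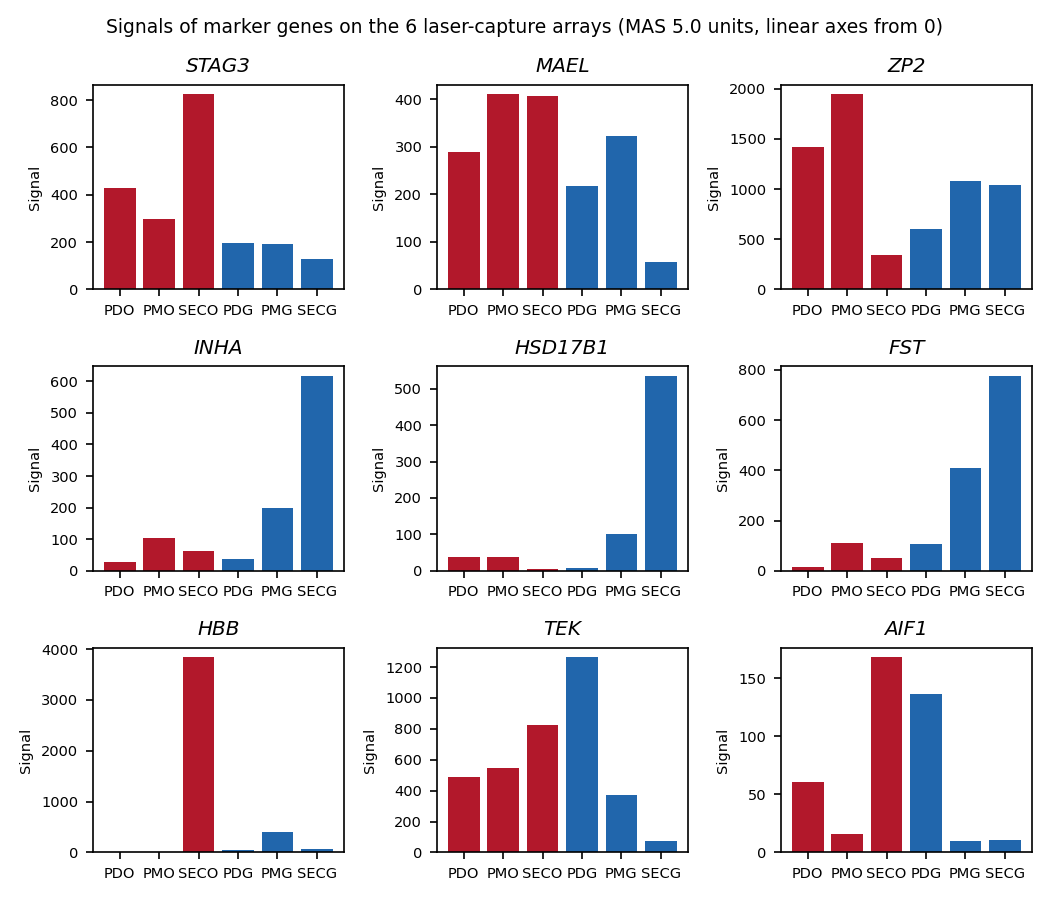
Signals (vertical, MAS 5.0 units, linear axes that start at 0) of 9 genes on the 6 LCM arrays, oocyte arrays in red and GC arrays in blue, 1 bar an array. STAG3 is highest on SECO, MAEL has 407 on SECO and 411 on PMO, INHA, HSD17B1 and FST are highest on SECG, ZP2 is lower on SECO (348) than on SECG (1043), and HBB has 3838 on SECO against at most 398 on the other arrays.

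By gene, the largest difference was that of a globin, and most bright leukocyte genes lay on the SECO side as well. HBB, beta-globin, had a signal of 3838 on SECO and 69.4 on SECG, a difference of 5.43, against 2.00 on PMO, 398 on PMG, 16.3 on PDO and 50.9 on PDG. HBG, a gamma-globin, had 575 and 72.9 (2.68). These probe sets carry the suffix that the array maker gives to probes shared between related sequences, so a part of their signal may come from other globins. Another bright HBB probe set, with a suffix for transcripts of 1 gene, differed by 6.62. The probe sets without such a suffix gave 90.5 on SECO and 67.6 on SECG for HBB, a difference of 0.34, and 135 and 5.21 for HBG, a difference of 2.62. Only these 2 of the 7 red blood cell genes on the array were bright, and ALAS2, the heme enzyme of red cells, was at 4.89 on SECO. HBA and HBM, other globin genes named after their values were seen, were under the limits. HBA had 42.6 on SECO and 44.0 on SECG, and HBM had 21.9 and 3.52. Of 15 leukocyte genes 6 were bright, with a median of 1.53, and 4 of them (66.7%, against 9.57% of all bright genes) were at least 2-fold higher on SECO. Each of the 4 had a SECG signal under the limit and so was bright through SECO alone. Without the brightness filter the median difference was 0.71 for the leukocyte list and 0.06 for the red blood cell list. AIF1, a macrophage protein, had 168 and 10.6 (2.62), CSF1R, the receptor of a macrophage growth factor, had 225 and 45.5 (1.90), and C1QB, a chain of complement C1q, had 68.6 and 5.86 (1.78). PTPRC, the marker of all leukocytes, was under the limit on both arrays at 19.5 and 24.1. At the other stages CSF1R had 292 on PMO, 232 on PMG, 198 on PDO and 115 on PDG, so its SECO signal was not the highest. AIF1 had 137 on PDG and at most 60.4 on PMO, PMG and PDO, and C1QB had at most 39.9 on these arrays.

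Of 14 endothelial genes 5 were bright, with a median of 0.74 and 1 (20%) past 2-fold on each side. Of all bright genes 9.57% were past it on SECO and 8.44% on SECG. TEK, the angiopoietin receptor, had 825 on SECO and 76.1 on SECG (3.14), but also 548 on PMO and 1263 on PDG, and VWF, a defining endothelial marker, was under the limit at 5.38 on SECO. Summed signals on SECO and SECG were 4517 and 228 for the red blood cell list, 982 and 382 for the leukocyte list and 1452 and 622 for the endothelial list. On the 4 other LCM arrays the sums ran from 150.4 to 889.7, from 579 to 745 and from 1185 to 3135. PTPRB, a phosphatase of endothelial cells, lay on the GC side with 45.6 and 152 (-1.39), and did so at the primary and primordial stages too, at -2.01 and -1.79. Of the 124 probe sets higher on SECO 118 and of the 111 higher on SECG all 111 belonged to no gene of these 3 lists. Other transcripts of such cells would remain among them, and their part in the differences was not tested.

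Control probe sets also differed between the 2 arrays. For the control sequence M15077, 2 probe sets had 1077 and 2554 on SECO and 1.91 and 6.51 on SECG. On the 4 other LCM arrays they had at most 5.80 and 16.6. The part of this signal in the differences was not tested. The GAPDH controls differed as well. The probe sets for the 3' and 5' ends had 13272 and 40.5 on SECO, where the 5' signal was under the limit, so the ratio was at least 222. On SECG they had 17014 and 713, a ratio of 23.9, and the 4 other LCM arrays had ratios from 10.6 to 31.3. Between the 3' end and the middle of GAPDH the ratios were 25.2 on SECO and 18.5 on SECG. For the GST controls the ratios of the 3' to the 5' end were 2.23 on SECO and 1.58 on SECG. The 5' signal of GST was 62.7 on SECO, close to the limit of 59.7, and 116 on SECG. The cyclophilin controls had 5705 at the 3' and 4.18 at the 5' end on SECO, and 10005 and 38.1 on SECG. The 5' signal of actin was 54.0 on SECO and 37.3 on SECG. These cyclophilin and actin 5' signals were under the limits. At the 5' end eIF-4E had 4.44 on SECO and 11.8 on SECG, also under the limits, and EF1A had 1072 and 645. Among these controls a lower 5' signal on SECO was thus seen for GAPDH, GST, cyclophilin and eIF-4E and not for actin and EF1A. Its part in the differences was not tested.

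The genes with the largest differences on the oocyte side after HBB were CNOT6L, TEK and TKTL1. CNOT6L, a deadenylase that removes the tails of maternal messages, had 218 on SECO and 1.18 on SECG (3.49, at least 4.31-fold), but lay lower on PDO than on PDG with 7.19 against 116. TKTL1, a transketolase-like protein, had 918 on SECO and 90.6 on SECG (3.08). TKTL1 was brighter in oocytes at each stage, at 341 and 191 on PMO and PMG and 384 and 180.3 on PDO and PDG. POLR3C, a subunit of RNA polymerase III, had 428 and 49.9 (2.68), and CABYR, a calcium-binding protein known from sperm tails, had 718 and 103 (2.58). Both kept the sign at the other stages with smaller differences, from 0.14 to 0.78 for POLR3C and from 0.34 to 0.52 for CABYR. STEAP3, an iron reductase, had 115 and 2.10 (2.61), and MYBPC1, a muscle protein that binds myosin, had 293 and 29.99 (2.65). PLAC8B had 173 and 5.72 (2.91). MMP14, a membrane protease that cuts collagen, had 140.5 and 5.79 (2.64), and ISG15, a ubiquitin-like protein induced by interferon, had 708 and 107 (2.52). Both of these lay higher in GC at the primary and the primordial stage, with differences of -1.41 and -3.26 for MMP14 and of -3.04 and -1.75 for ISG15.

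Nuage genes, which act against transposons in germ cells, lay mostly on the oocyte side. All 7 on the array were bright, their median difference was 1.24, and 4 (57.1%, against 9.57% of bright genes) were at least 2-fold higher on SECO with none at least 2-fold higher on SECG. The 4 include MAEL, which had been picked with the values of both arrays known. ASZ1, an ankyrin repeat protein of nuage, had 189 on SECO and 29.1 on SECG (2.09), and TDRD7, a tudor protein, had 705 and 260.5 (1.37). DDX25, a germ cell RNA helicase named after its values were seen, had 785 and 321 (1.24). The primary and primordial arrays gave mixed signs, with ASZ1 at -1.10 and 0.40, TDRD7 at -0.74 and 0.77 and DDX25 at 1.25 and 1.02. DDX25 was thus at least 2-fold higher in oocytes at all 3 stages. Of 20 bright genes of mRNA storage and decay 2 (10%, near the share of all bright genes) were at least 2-fold higher on SECO, CNOT6L and IGF2BP3, an RNA-binding protein with 372 and 157 (1.14). ZFP36L2, which binds messages for decay, was the 1 on the other side with 51.0 and 134 (-1.11). Of 10 bright maternal effect genes 9 were higher on SECO, against 2946 of all 5652 bright genes, at a median of 0.57. Of the 10, 2 (20%, against 9.57% of all bright genes) passed 2-fold. These were HSF1, a heat shock factor (112 and 42.8), and CDH1, E-cadherin (73.6 and 26.6).

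On the GC side the largest differences after HSD17B1 included secreted, matrix and signalling proteins. NTN4, a netrin of basal laminae, had 36.1 on SECO and 622 on SECG (-3.52, at least 10.4-fold). TOX2, a nuclear protein of the HMG box family, had 163 and 1872 (-3.37), and NOS2, the inducible nitric oxide synthase, had 39.8 and 569 (-3.30). All 3 were also brighter on PMG than on PMO and on PDG than on PDO, by smaller differences of up to -2.28, for TOX2 at the primary stage. The other probe sets of NOS2 were not bright and differed by -0.07 to 1.06 between SECO and SECG. ITGBL1, an integrin-like protein, had 74.5 and 849 (-3.20), and COLGALT2, a collagen galactosyltransferase, had 34.9 and 475 (-3.17). MGP, an inhibitor of calcification, was among the brightest of these with 1050.4 and 9823 (-3.20). On PMO its signal was 16904 and on PMG 4595, so that its order was turned at the primary stage, and on PDO and PDG it was 16559 and 20862. SECO had the lowest MGP signal of the 6 arrays, and the other 3 bright MGP probe sets, all dimmer, differed by -0.40 to -1.11.

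COLQ, a collagen tail of acetylcholinesterase, had 14.5 and 271 (-3.08), but its other bright probe set lay 0.56 higher on SECO. PLA2G1B, a phospholipase, had 6.25 and 202 (-3.08), RNASET2, a ribonuclease, had 3.07 and 175 (-3.08), and AKT1, a kinase of insulin signalling, had 4.11 and 149 (-2.81). Another probe set of AKT1 was not bright and lay 0.70 higher on SECO. DPP4, a surface peptidase, had 56.2 and 525 (-2.84), and its second bright probe set differed by -2.30. DPP4 stood apart through a low SECO signal, since the 4 other LCM arrays had 604 to 756. GEM, a small GTPase, had 19.4 and 226 (-2.64).

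**Figure D3:**
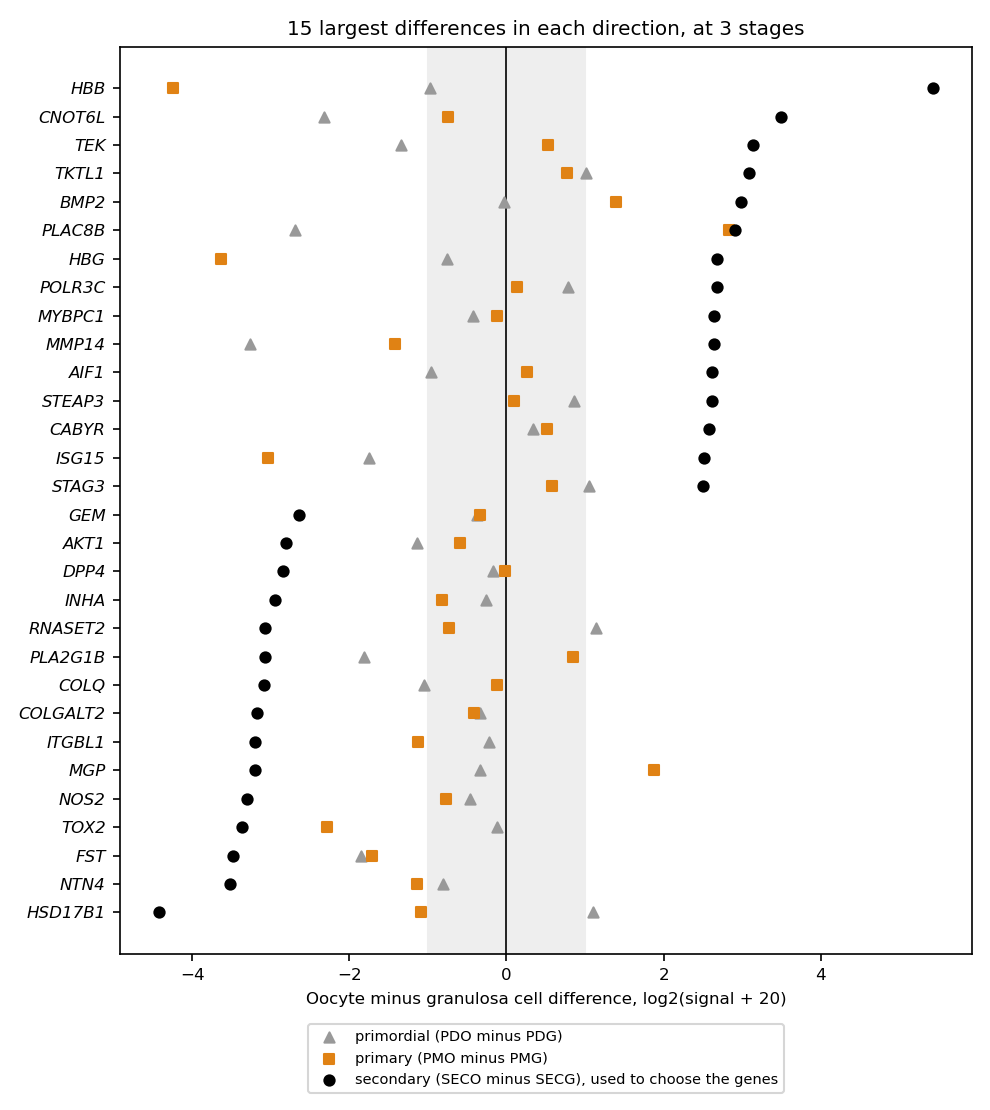
Oocyte minus GC difference in log2(signal + 20) (horizontal) of the 15 genes with the largest difference in each direction (vertical), black circles for the secondary stage that chose them, squares for the primary and triangles for the primordial stage. The shaded band is within 2-fold. Of the genes on the GC side FST lies beyond the band at all 3 stages, while HBB, HBG, MMP14 and ISG15 lie on opposite sides at the secondary and primary stages.

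Ligands and antagonists of the BMP and TGF-beta family lay on both sides. Of 15 on the array 9 were bright, with a median of -0.06. At least 2-fold higher were 2 (22.2%, against 9.57% of all bright genes) on SECO and 3 (33.3%, against 8.44%) on SECG. BMP2 had 209.7 on SECO and 9.14 on SECG (2.98, at least 4.14-fold), and was also brighter on PMO, with 187 against 58.7 on PMG, but not on PDO, with 93.3 against 96.1 on PDG. BMP7 had 126 and 7.36 (2.41), with signals from 9.84 to 58.5 on the other LCM arrays. Their antagonist FST and the inhibin subunit INHA were the largest on the GC side, as given above, followed by TGFB2 with 10.5 and 54.2 (-1.28), a signal close to the limit. FST was at least 2-fold higher in GC at every stage, with 111 and 410 on PMO and PMG and 15.2 and 107 on PDO and PDG. Of 10 bright receptors, SMADs and targets 1 passed 2-fold on each side, SMAD5 with 62.6 and 13.6 (1.30) and SMAD2 with 520 and 1101 (-1.05).

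Of 13 bright glycolysis genes 12 were higher on SECG, against 2706 of all 5652 bright genes. The median was -0.68 against 0.03 for all bright genes. The difference was at least 2-fold for 6 of them on SECG (46.2%, against 8.44% of all bright genes) and for none on SECO (against 9.57%). HK1, hexokinase, had 82.3 on SECO and 294 on SECG (-1.62), ENO1, enolase, had 99.1 and 338 (-1.59), and PGAM1, phosphoglycerate mutase, had 116 and 372 (-1.52). At the primary and primordial stages these 3 differed by at most 0.70 in either direction, and LDHA, named after its values were seen, had -0.68 at the secondary stage but 0.61 and 0.72 at the others. PHGDH, the first enzyme of serine synthesis, had 159 and 719.8 (-2.05), and was brighter in GC at the other stages too, at -0.82 and -1.09. TYMS, thymidylate synthase, had 3.36 and 64.3 (-1.85) and lay the other way at both other stages. SREBF1, a regulator of lipid synthesis, had 338 and 799 (-1.20), and SCD, a desaturase, had 188 and 398 (-1.01), the only 2 of 18 bright sterol and fatty acid genes past 2-fold. Of 48 bright genes of oxidative phosphorylation 47 were within 2-fold, and of 60 bright ribosomal protein genes 59, against 4634 of all 5652 bright genes.

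Several contractile and cytoskeletal genes lay on the GC side at every stage. TPM1, TPM4 and TPM2, tropomyosins that bind actin filaments, had 750.2 and 4387 (-2.52, with -0.99 for a dimmer probe set of TPM1), 2039 and 5863 (-1.51) and 356 and 1022 (-1.47) on SECO and SECG. All 3 were at least 2-fold higher in GC at each of the 3 stages, as were MYH11, a smooth muscle myosin (352 and 1186, -1.70), and CALD1, caldesmon (64.6 and 246, -1.65). Of 6 bright smooth muscle genes 3, TPM2, CALD1 and MYH11, were at least 2-fold higher on SECG (50%, against 8.44% of all bright genes). None was so on SECO (against 9.57%). ACTA2, CNN1, MYLK and the tropomyosin TPM3, named after their values were seen, differed by only 0.07, -0.08, -0.19 and -0.02. Of 28 bright actin cytoskeleton genes 4 (14.3%, against 8.44% of all bright genes) were at least 2-fold higher on SECG and 2 (7.14%, against 9.57%) on SECO. These were S100A10, an annexin partner, with 259.8 and 45.3 (2.10), whose other bright probe set differed by 0.03, and TLN1, talin, with 134 and 32.3 (1.56), whose other bright probe set lay 0.44 lower on SECO. DAG1, dystroglycan, a receptor for laminin, had 1075 and 4225 (-1.95), and COL4A3, a basal lamina collagen, had 45.6 and 154 (-1.41). Of 14 bright genes of basal lamina and integrins 3 (21.4%, against 8.44% of all bright genes) were at least 2-fold higher on SECG and none (against 9.57%) on SECO, with a median of -0.51. The third was ITGAV, an integrin subunit, with 48.9 and 141 (-1.23). The 9 bright junction genes had 2 (22.2%, against 9.57% of all bright genes on SECO and 8.44% on SECG) past 2-fold on each side and a median of -0.27. The smooth muscle list summed to 2753 on SECO and 4687 on SECG, below PMG (6373) and PDG (11068), and the part of muscle cells in TPM2, MYH11 and CALD1 was not tested. GJB2, a connexin, lay on the oocyte side with 66.2 and 16.5 (1.24), and so it did on PMO with 309 against 147 and on PDO with 275 against 111.

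Genes of stroma did not separate the arrays as they did at the other stages. The 13 bright stroma genes had a median of 0.31, with FN1, fibronectin (252 and 109, 1.08), and PDGFRB (95.5 and 36.5, 1.03) at least 2-fold higher on SECO and THY1 (8.12 and 56.5, -1.44) on SECG. The list summed to 17954 on SECO and 14572 on SECG, but to 5936 on PMO and 32175 on PMG, and to 17478 on PDO and 52772 on PDG. NR2F2 and NR2F1, orphan nuclear receptors, were higher on SECO with 3564 against 1605 (1.14) and 371 against 156 (1.15), whereas both were higher on PMG and PDG than on PMO and PDO. The part of stromal cells in the SECO differences was not tested.

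Stress and early response genes lay on both sides. Of 25 bright, 5 (20%, against 9.57% of all bright genes) were at least 2-fold higher on SECO and 3 (12%, against 8.44%) on SECG, with a median of 0.10. ATF3, a stress-induced transcription factor, had 99.0 and 4.50 (2.28), HSP90AA1, a chaperone, had 2359 and 602 (1.94) but 0.13 by its other bright probe set, and FOS, an immediate early factor, had 191 and 44.7 (1.71). IER3 had 337 and 976 (-1.48), DDIT4, an inhibitor of mTOR signalling, had 147 and 439 (-1.46), and MYC, a transcription factor of cell growth, had 149.6 and 404 (-1.32). MYC was at least 2-fold higher in GC at all 3 stages. In the cell cycle list 21 of 33 bright genes were higher on SECG (against 2706 of all 5652 bright genes), with a median of -0.29. CENPF, a kinetochore protein (91.9 and 10.2, 1.89), and MCM6, of the replicative helicase (402 and 164, 1.20), were at least 2-fold higher on SECO. TYMS (-1.85) was so on SECG, and 30 of the 33 were within 2-fold (against 4634 of all 5652). Another probe set of CENPF was not bright and differed by -0.96. Of 28 bright chromatin genes 26 were within 2-fold, HMGA1, an architectural chromatin protein (318 and 116, 1.32), and H2AZ1, a histone variant (1478 and 3095, -1.06), being the others. The ubiquitin and proteasome list had PSMD4 (1.18) and PSMD6 (-1.18) past 2-fold of 33 bright genes. In the insulin-like growth factor list IGF1R (1.03) and IGFBP6 (1.02) passed it, of 8 bright. None of 6 bright steroidogenesis genes did. Of the surface epithelium list UPK1B (1.14) did, of 3.

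**Figure D4:**
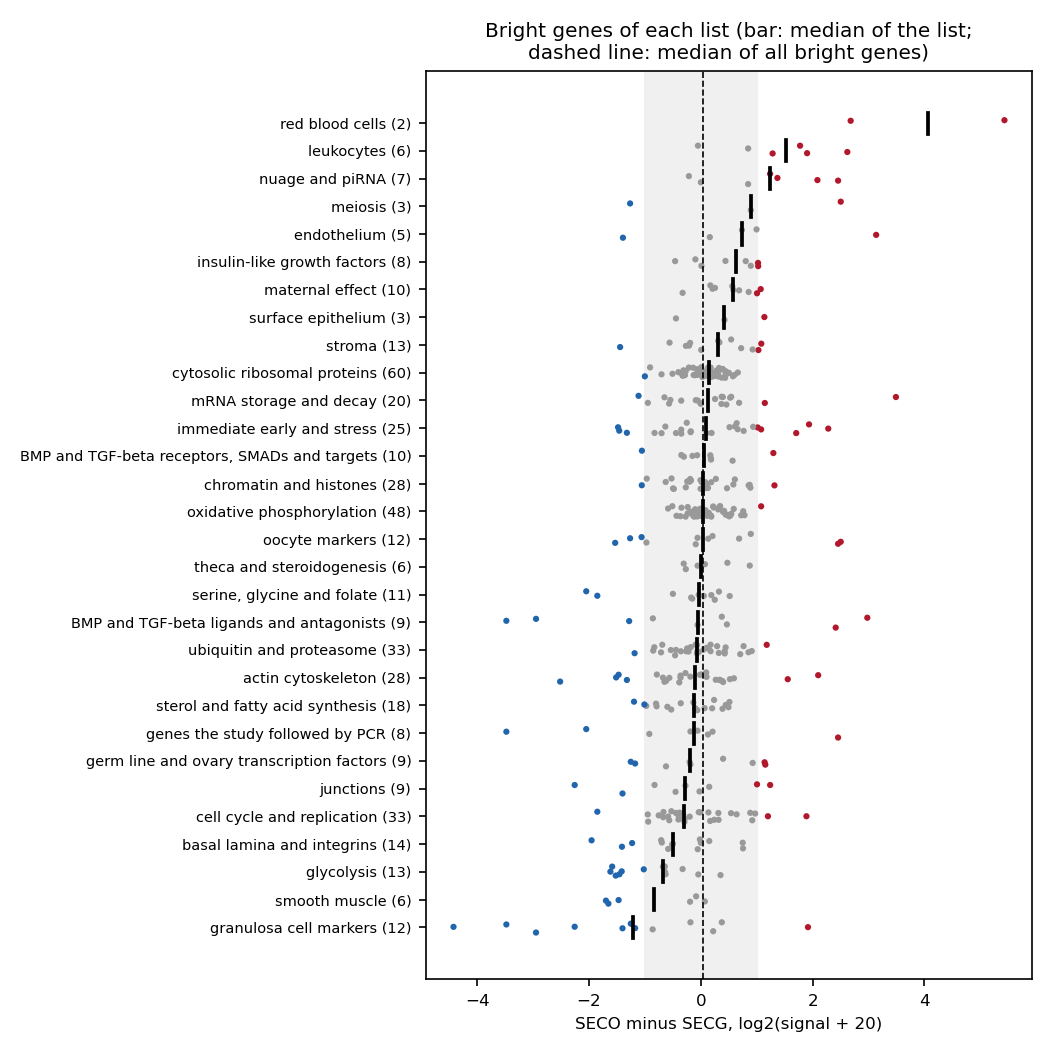
Difference SECO minus SECG in log2(signal + 20) (horizontal) for every bright gene of the 30 lists (vertical, number of bright genes in brackets), red at least 2-fold higher on SECO and blue on SECG, with random vertical offsets. The GC markers have the lowest median at -1.21, the nuage list has 1.24, and the ribosomal protein and oxidative phosphorylation lists lie within the shaded 2-fold band but for 1 gene each.

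Of the genes the study followed by PCR, LAS1L, a nuclear protein of ribosome assembly, had 205 on SECO and 406 on SECG (-0.92), and it was brighter in GC at both other stages (-0.73 and -0.53). SIRT7, a sirtuin deacetylase, had 67.5 and 60.2 (0.13), against 1.15 and 0.92 at the primary and primordial stages. The remaining ones with a symbol were described above.

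On the 4 arrays that had no part in choosing them, the genes higher on SECG held their direction more often than those higher on SECO. Of the 111 probe sets at least 4-fold higher on SECG, 36 (32.4%) were at least 2-fold higher on PMG than on PMO and 6 (5.41%) at least 2-fold lower. Across all bright probe sets the shares were 10.1% and 10%. At the primordial stage 30 (27.0%) were at least 2-fold higher in GC and 7 (6.31%) lower, against 8.88% and 6.94% of all bright probe sets. Of the 124 higher on SECO, 23 (18.5%) were at least 2-fold higher on PMO and 20 (16.1%) at least 2-fold lower. At the primordial stage 16 (12.9%) were higher and 15 (12.1%) lower. The difference between the 2 sides was not tested.

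Of the 5652 bright genes, 19 were at least 2-fold higher in oocytes and 29 at least 2-fold higher in GC at all 3 stages. The genes named next were chosen after their values were seen. RSU1, a focal adhesion protein, had 351 on SECO and 58.6 on SECG (2.24), 328 on PMO and 52.4 on PMG, and 227 on PDO and 41.6 on PDG, the largest of the 19 at the secondary stage. FGF11 had 152 and 40.1 on SECO and SECG, 116 and 17.4 on PMO and PMG, and 114 and 10.4 on PDO and PDG. VEGFA, a growth factor of vessels, had 262 on SECO and 1697 on SECG (-2.61), 300.3 and 885 on PMO and PMG, and 179 and 665 on PDO and PDG, and was with FST the largest of the 29. The other bright probe set of VEGFA was dimmer and lay 0.52 higher on SECO. Next to these, HIF1A and TRIB2 were also brighter in GC at each stage but missed 2-fold at the primordial stage, at -0.62 and -0.99. HIF1A, the oxygen-regulated factor that drives VEGFA and glycolytic genes, had 1032 and 5477 (-2.39), 1505 and 3532 on PMO and PMG and 1252 and 1931.0 on PDO and PDG. TRIB2, a pseudokinase, was the brightest of the genes past 4-fold named here, with 3425 on SECO and 15505 on SECG (-2.17), 1895 and 8720.2 on PMO and PMG and 1014 and 2037 on PDO and PDG.

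The distance between the compartments was set beside that between arrays of 1 compartment, in the absence of replicates. SECO and SECG had 235 of the 9930 bright probe sets at least 4-fold apart, PMO and PMG 196, and PDO and PDG 101. SECO had 287 to PMO and 290 to PDO, more than to SECG, and SECG had 172 to PMG and 241 to PDG. The log2 signals of SECO correlated alike with PDO, at 0.8657, and with SECG, at 0.8650. Those distances hold stage and array at once, over probe sets chosen for brightness on SECO or SECG. Across the bright probe sets the secondary difference correlated with the primary one at 0.10 and with the primordial one at 0.13, while the latter pair correlated at 0.31 (Pearson, description across probe sets of the same arrays).

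**Figure D5:**
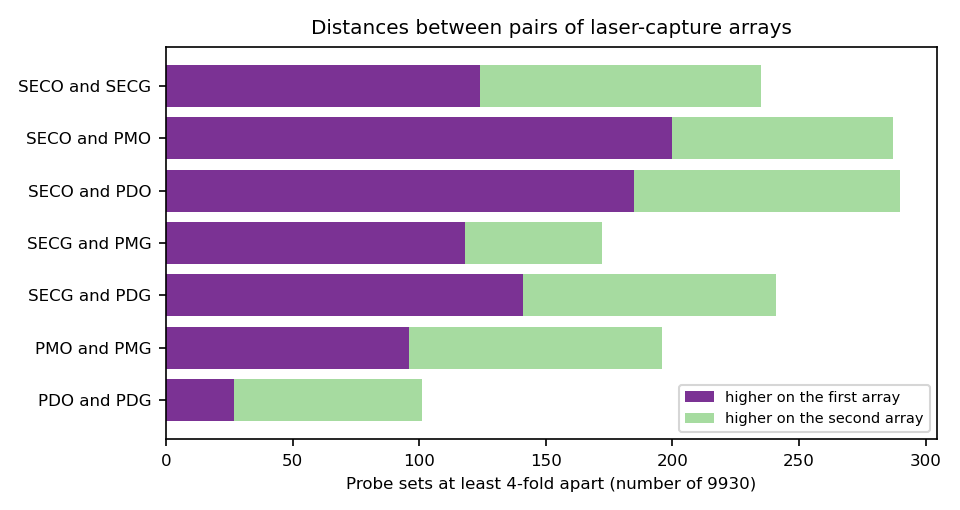
Number of the 9930 bright probe sets at least 4-fold apart (horizontal) for 7 pairs of LCM arrays (vertical), split by which array was higher. SECO and SECG are 235 apart, fewer than SECO and PMO (287) or SECO and PDO (290).

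Repeated probe sets of a gene were compared within the arrays. By its brightest bright probe set, 541 genes (9.57%) were at least 2-fold higher on SECO and 477 (8.44%) on SECG, and 60 and 50 passed 4-fold. Of these 60 genes 7 had several bright probe sets, and for 6 every one lay on the SECO side. Of the 50 genes 12 had several, and for 9 every one lay on the SECG side. Every bright probe set was at least 2-fold higher on that side for 3 of the 7 and 2 of the 12. These counts include the probe set that placed the gene, and a probe set can be bright through the higher array alone. They are thus a description and no check.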

How the data were processed

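The authors interpreted the images with Microarray Suite 5.0 in GCOS (versions not given in the sources used here) and deposited intensity values on a linear scale, scaled to a target of 100 with no normalization between arrays. Ovine RNA was hybridized to bovine probes, so a low signal may also reflect sequence mismatch. Present calls were not used, and no value column was left unmapped.

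The 112 controls were left out. Of 24016 probe sets 13292 have 1 gene symbol in the platform annotation, 86 several and 10638 none. Signals received a constant of 20 before log2, and each gene was represented by its bright probe set with the highest mean. "At least" folds replace the dim signal by the limit of the brightest 35% where it is lower. With 1 array a side, counts past 2-fold and 4-fold replace tests. The counting was tested on simulated data.

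Named were the 15 largest differences in each direction, up to 3 genes per side past 2-fold of each of 30 lists, the 4 markers and the genes followed by PCR. SOHLH2, WEE2 and DDX4, which have no symbol on the array, are not analysed here. Other genes are said to have been chosen after their values were seen. Members and lists were chosen with earlier results of these data known. Alternatives were constants of 1 and 50, a floor at 20, the brightest 30% or 40%, 35% on both arrays, no filter, quantile normalization, median centring and the mean of a gene's probe sets. Leaving out blood, leukocyte and endothelial genes was chosen after seeing the data. Python 3.11.15, pandas 2.3.3, numpy 2.4.6 and matplotlib 3.10.9 were used.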

Additional observations from a re-analysis of the deposited data

Results flagged for a closer look

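Of the 92 named genes at least 2-fold apart on SECO and SECG, 22 were at least 2-fold apart the other way at another stage. Of all bright probe sets, 10% were at least 2-fold higher on PMO and 10.1% on PMG. On PDO and PDG the shares were 6.94% and 8.88%. None of these differences between stages was tested, with 1 array in each cell of the comparison. The values below are oocyte minus GC in log2(signal + 20), first at the secondary stage. Against the primary stage, HBB had 5.43 and -4.25, HBG 2.68 and -3.63, MGP -3.20 and 1.87, ASZ1 2.09 and -1.10, and ITGAV -1.23 and 1.34. Against the primordial stage, CNOT6L had 3.49 and -2.32, TEK 3.14 and -1.34, PLAC8B 2.91 and -2.69, HSD17B1 -4.42 and 1.10, and RNASET2 -3.08 and 1.14. The oocyte genes KPNA7 (-1.06 and 1.31), MOS (-1.27 and 1.70) and ZP2 (-1.53 and 1.22) lay on the GC side at the secondary and on the oocyte side at the primordial stage. C1QB had 1.78 and -1.03, BMP7 2.41 and -1.14, S100A10 2.10 and -1.37, FOS 1.71 and -1.19 and IGF1R 1.03 and -1.41 against the primordial stage.

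Of the 22 genes 4 lay the other way at both other stages. MMP14 had 2.64 at the secondary stage, -1.41 at the primary and -3.26 at the primordial. ISG15 had 2.52, -3.04 and -1.75, FN1 had 1.08, -1.14 and -1.27, and NR2F2 had 1.14, -1.92 and -1.13.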

How the results depend on the processing

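None of the 92 named genes past 2-fold changed sign under the 6 alternatives run on single genes. The constants and the floor cannot turn a sign, and centring moved every value by only 0.05, so this outcome was largely fixed by construction. Of the 582 values of all 97 named genes 547 stayed on their side of 2-fold. Of 300 list medians 292 stayed on their side of 2-fold, 7 crossed it, and 1 that was past it changed sign: the leukocyte median was -0.051 with probe sets bright on both arrays, where CD68 alone was left. Counts of probe sets depended mainly on the added constant and the filter. At least 2-fold higher on SECO and on SECG were 588 and 532 with a constant of 50, 337 and 396 with probe sets bright on both arrays, and 2412 and 1503 without a filter. At least 4-fold apart were 467 and 352 with a constant of 1, 278 and 190 with a floor at 20, 19 and 53 with a constant of 50 and 14 and 45 with probe sets bright on both arrays. The share of the 4-fold probe sets that were higher on SECO was 52.8%, and 26.4% with a constant of 50, 23.7% with both arrays bright, 40.2% after quantile normalization and 43.2% after centring. A larger constant or a stricter filter removes dim signals by construction. TCN2, whose brightest probe set differed by 0.41, had another at -3.86. No paired analysis was possible because each group holds 1 array, and for the same reason no replicate could be left out.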

Other observations

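Probe sets without a gene symbol reached differences as large as the named genes. Of the 124 probe sets at least 4-fold higher on SECO 75 had 1 symbol, for 70 genes, and of the 111 higher on SECG 59, for 57 genes.

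Genes chosen after their values were seen added values to the GC side. SLC16A3, a lactate exporter, had 117 on SECO and 587 on SECG (-2.14), 75.0 on PMO and 196 on PMG, and 33.5 on PDO and 84.5 on PDG. APOD, a lipid carrier, had 144 and 707 (-2.15), 354 and 821 on PMO and PMG, and 297 and 665 on PDO and PDG. CCDC3 had 739 and 4020.1 (-2.41), with -0.97 and -1.04 at the primary and primordial stages. ENC1, ATP1B1, RGS16 and IVNS1ABP differed by -2.53, -2.55, -2.49 and -2.22 at the secondary stage. RGS16, a regulator of G protein signals, had 141 on SECO and 882 on SECG, and lay 0.12 and 0.75 higher in oocytes at the primary and primordial stages.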
